A study of Mus musculus with 14 samples.

Results

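Neurofilaments are the intermediate filaments of neurons. 4 genes encode the subunits considered here: Nefl, Nefm and Nefh, for the light, medium and heavy neurofilament chains, and Ina, for alpha-internexin. They were picked by symbol from the 24444 genes of each deposited table, with the differences between mutant and wild-type mice in both tables already known, so their differences are given as a description and without a test. All 4 were found in both tables and all 4 passed the filter on low values, which kept 12014 genes in one table and 10670 in the other.

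Polyadenylated RNA of whole mouse cortex was sequenced in 2 models. The miR29Nestin mice carried floxed alleles of both miR-29 clusters, miR-29ab1 and miR-29b2c, and the Nestin-Cre transgene, which deletes them in the neural progenitors that give rise to neurons, astrocytes and oligodendrocytes, a lineage that does not include microglia. They were compared with miR29WT mice at postnatal day 40 (3 libraries each). The labels do not say whether these controls carried floxed alleles or Cre. The Dnmt3a-mi5 mice carried a CRISPR/Cas9 knock-in that changes, in every cell, 5 places in the Dnmt3a 3′ UTR to which miR-29 binds (Dnmt3a is a DNA methyltransferase gene), with miR-29 itself left in place. They were compared with Dnmt3a-WT mice at 4.5 months (4 libraries each). The labels do not say whether the knock-in was homozygous. No label states whether each library is 1 animal, so the spread between libraries may be partly technical.

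In an axon, the light chain forms the core of the filament together with the medium and heavy chains and alpha-internexin. The long tails of the medium and heavy chains reach sideways, are heavily phosphorylated, and help to set the calibre of the axon and so its conduction speed. Alpha-internexin appears early in developing neurons, and the heavy chain accumulates last as axons mature. Large projection neurons and fast-spiking interneurons of the cortex are rich in neurofilament. A microRNA such as miR-29 lowers its targets by pairing its seed, bases 2 to 8, with matching sites that lie mostly in 3′ UTRs.

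The miR-29 seed and its matches in the 4 transcripts are shown because miR-29 is deleted in one model and its matches in Dnmt3a are mutated in the other. The mature sequences are those of RefSeq (GRCm38.p6), 5′ to 3′, with the seed in capitals.
miR-29a-3p: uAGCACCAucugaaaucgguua
miR-29b-3p: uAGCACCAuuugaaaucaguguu
miR-29c-3p: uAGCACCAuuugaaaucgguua
All 3 share 1 seed. Its perfect match, TGGTGCT, was in none of the 3′ UTRs of the 4 genes (GENCODE M21 gene models on GRCm38, sense strand only), which are 1648 nt in Nefl, 754 nt in the shorter and 2234 nt in the longer 3′ UTR of Nefm, 591 nt in Nefh and 1677 nt in Ina. Of the tested genes with an annotated 3′ UTR, 16.7% had TGGTGCT in the miR29 table and 17.0% in the Dnmt3a table. The 3′ UTR of Ina held the shifted match GGTGCTA, which pairs with bases 2 to 7 and has an A opposite base 1, and which shares 6 letters with TGGTGCT; of the tested genes with an annotated 3′ UTR, 8.39% in the miR29 table and 8.35% in the Dnmt3a table held it. 2 perfect matches lay in coding sequence, in Nefl and in the shorter transcript of Nefm. The longer Nefm transcript had none. The matches are in capitals, with 10 bases before and 9 after.
Ina, 3′ UTR, chr19:47023927-47023933, plus strand: tgcaaatgaaGGTGCTAaatctgctc
Nefl, coding sequence, chr14:68084330-68084336, plus strand: gccgagctgtTGGTGCTgcgccagaa
Nefm, coding sequence, chr14:68120180-68120187, minus strand: aggggggcgaTGGTGCTAccaaataca
The match in Nefm runs on into an A and counts as 8 letters. No match was found in Nefh. A match is only letters in these windows, and binding was not measured.

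The gene models also bear on how reads can be assigned. Nefl (ENSMUSG00000022055.7, chr14:68083863-68089095, plus strand, 4 exons) lies within the span of Nefm (ENSMUSG00000022054.11, chr14:68082590-68124846, minus strand). An exon of the longer Nefm transcript runs antisense over 1108 of the 3380 exonic bases of Nefl. The libraries were stranded, but the counting is not stated to use strand, so whether reads from those bases were kept apart between both genes is not known. Nefh (ENSMUSG00000020396.8, chr11:4938754-4948064, minus strand, 4 exons) and Ina (ENSMUSG00000034336.3, chr19:47014698-47025327, plus strand, 3 exons) had no such overlap with another member.

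Values are given as normalised counts, recovered from the deposited log2 values and scaled to the same depth within a table, while differences and their standard errors (SE) are on the deposited log2 scale, mutant minus wild type. The reads assigned to genes in the miR29 libraries were estimated from the recovered counts at 9187000 to 14420000 per library. The lowest value of any of the 4 genes in these libraries was 1073 normalised counts. The depth of the Dnmt3a libraries is unknown and their recovered counts are approximate. The design was visible in Dnmt3a itself, which averaged 5529 ± 300 normalised counts in miR29Nestin cortex and 1662 ± 59.2 in miR29WT cortex (SD, n = 3 each; limma adjusted p = 8.18e-08). It averaged 2080 ± 151 in Dnmt3a-mi5 cortex and 1145 ± 84.6 in Dnmt3a-WT cortex (SD, n = 4 each; limma adjusted p = 0.000624).

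In miR29Nestin cortex the heavy chain, the medium chain and alpha-internexin stood above miR29WT in every library, and the light chain stood below it. The heavy chain differed most. Nefh had 1533, 1534 and 1918 normalised counts in miR29Nestin libraries 1 to 3, against 1073, 1137 and 1233 in miR29WT libraries 1 to 3. Both groups kept apart, the highest value being that of miR29Nestin library 3. The means were 1662 ± 222 in miR29Nestin and 1148 ± 80.7 in miR29WT (SD, n = 3 each), 1.45-fold higher in miR29Nestin, with a log2 difference of 0.47 (SE 0.08). Of the 12014 genes tested, 98.3% had a lower difference than Nefh.

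Ina had 2147, 2440 and 2237 normalised counts in the miR29Nestin libraries, against 1937, 1961 and 1861 in the miR29WT libraries. The groups did not overlap and the miR29WT libraries lay close together. The means were 2275 ± 150 in miR29Nestin and 1920 ± 52.0 in miR29WT (SD, n = 3 each), 1.18-fold higher in miR29Nestin (log2 difference 0.22, SE 0.06). Nefm had 3545, 3300 and 3531 normalised counts in the miR29Nestin libraries, against 3236, 2733 and 2925 in the miR29WT libraries. Here the lowest miR29Nestin library and the highest miR29WT library nearly met, 0.0264 apart on the log2 scale. The means were 3458 ± 138 in miR29Nestin and 2965 ± 254 in miR29WT (SD, n = 3 each), 1.17-fold higher in miR29Nestin (log2 difference 0.21, SE 0.06).

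The light chain, the core subunit, ran the other way. Nefl had 2889, 2754 and 2904 normalised counts in the miR29Nestin libraries, against 3090, 2949 and 3247 in the miR29WT libraries. The groups did not overlap, by 0.0208 on the log2 scale, a gap smaller than the spread within either group. The means were 2849 ± 82.6 in miR29Nestin and 3095 ± 149 in miR29WT (SD, n = 3 each), 0.92 times the miR29WT mean (log2 difference -0.11, SE 0.05).

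The median log2 difference of the 4 genes was 0.22, beside -0.01 over all genes tested. 3 of the 4, Nefh, Nefm and Ina, were called higher at an adjusted p under 0.05 by limma over all genes, a call that 9.02% of tested genes had in that direction and 19.1% in either direction (33.0% had an unadjusted p under 0.05). No call was made for Nefl. The groups did not overlap for any of the 4, nor for 37.3% of tested genes, 18.6% with the mutant higher, as for 3 of the 4, and 18.7% with the mutant lower, as for Nefl. Because this contrast chose the genes, nothing is read from those counts. Leaving out 1 library left 1 to 3 of the 4 called: 1 without miR29Nestin library 2 or miR29WT library 2 or 3, and 2 without miR29Nestin library 1 or 3. By the Y-linked genes Kdm5d and Uty, 1 of 3 miR29Nestin libraries and 2 of 3 miR29WT libraries were male. With sex as a term, added after the data were seen, the log2 differences were 0.45 for Nefh, 0.25 for Nefm, 0.20 for Ina and -0.09 for Nefl.

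**Figure D1:**
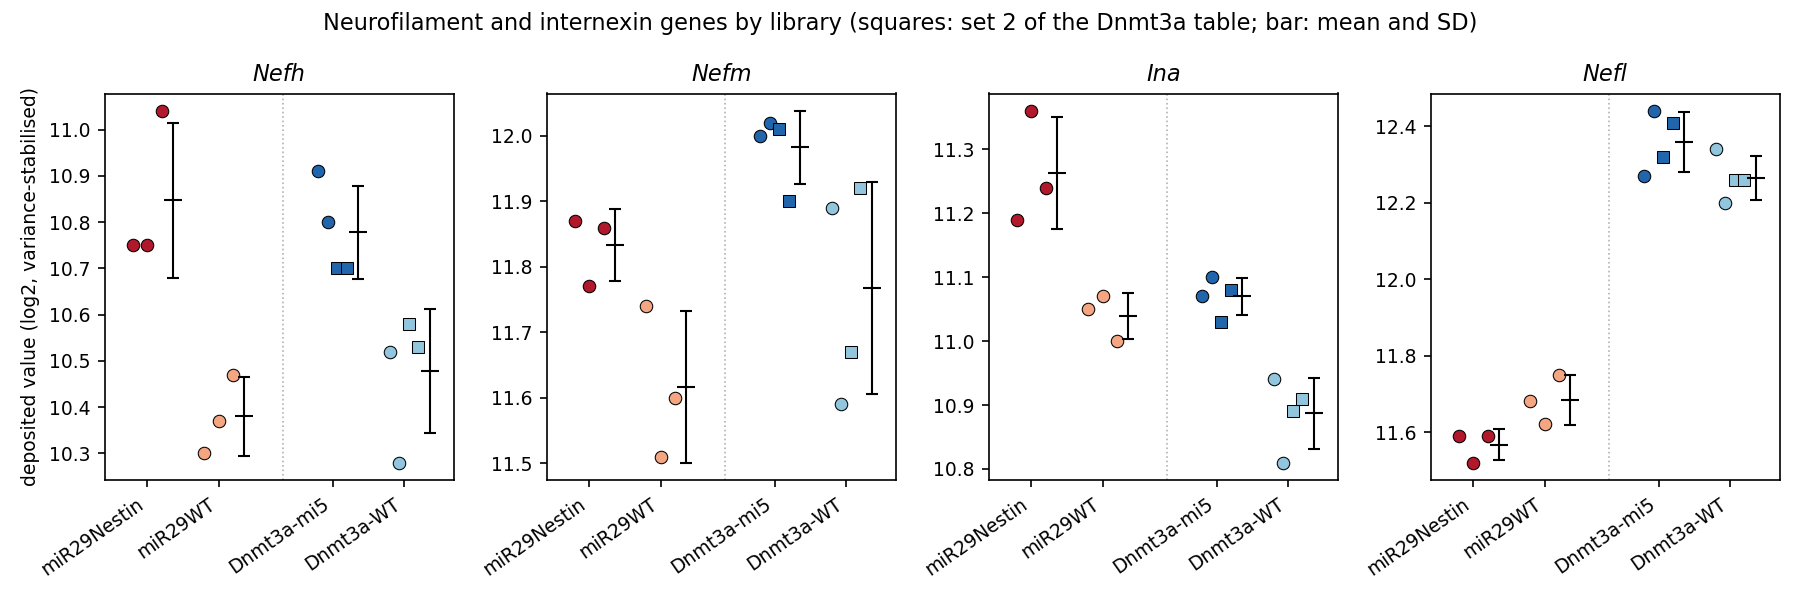
Deposited log2 values of Nefl, Nefm, Nefh and Ina in each library (vertical axes), by group, with the mean and SD as bars. In the miR29 mice Nefh runs from 10.75 to 11.04 in miR29Nestin and from 10.3 to 10.47 in miR29WT. Nefl is the gene whose mutant libraries lie below the wild type there. In the Dnmt3a mice Nefh and Ina keep the groups apart.

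In Dnmt3a-mi5 cortex all 4 genes had higher means than in Dnmt3a-WT, the heavy chain again by the most. Nefh had 1546, 1408, 1290 and 1297 normalised counts in Dnmt3a-mi5 libraries 1 to 4, against 1103, 881.8, 1159 and 1111 in Dnmt3a-WT libraries 1 to 4. Every Dnmt3a-mi5 library was above every Dnmt3a-WT library. The means were 1385 ± 120 in Dnmt3a-mi5 and 1064 ± 124 in Dnmt3a-WT (SD, n = 4 each), 1.3-fold higher in Dnmt3a-mi5 (log2 difference 0.30, SE 0.07).

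The deposited values of this table had been adjusted so that 2 sets of 4 libraries, libraries 1 and 2 of each group and libraries 3 and 4 of each group, have equal means. Within the first set the log2 difference of Nefh was 0.45, and within the second it was 0.15. The lowest Dnmt3a-WT library, number 2, lies in the first set.

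Ina had 1766, 1811, 1709 and 1781 normalised counts in the Dnmt3a-mi5 libraries, against 1587, 1416, 1528 and 1549 in the Dnmt3a-WT libraries. The groups did not overlap. The means were 1767 ± 42.7 in Dnmt3a-mi5 and 1520 ± 73.4 in Dnmt3a-WT (SD, n = 4 each), 1.16-fold higher in Dnmt3a-mi5 (log2 difference 0.18, SE 0.03), with 0.21 within the first set and 0.15 within the second. For both remaining genes the groups overlapped. Nefm had 3698, 3771, 3729 and 3449 normalised counts in the Dnmt3a-mi5 libraries, against 3405, 2709, 2871 and 3490 in the Dnmt3a-WT libraries. Dnmt3a-WT library 4 stood above Dnmt3a-mi5 library 4, and the Dnmt3a-WT libraries spread widely. The means were 3662 ± 145 in Dnmt3a-mi5 and 3119 ± 387 in Dnmt3a-WT (SD, n = 4 each; log2 difference 0.21, SE 0.07; 0.27 and 0.16 within the sets).

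Nefl had 4566, 5149, 4731 and 5056 normalised counts in the Dnmt3a-mi5 libraries, against 4808, 4320, 4533 and 4505 in the Dnmt3a-WT libraries. The lowest Dnmt3a-mi5 library lay inside the Dnmt3a-WT range and another, library 3, below its top. The means were 4875 ± 273 in Dnmt3a-mi5 and 4542 ± 201 in Dnmt3a-WT (SD, n = 4 each; log2 difference 0.09, SE 0.04; 0.08 and 0.11 within the sets). The sign was thus opposite to that in the miR29 mice. The difference between both contrasts was not tested, because the tables were normalised separately and the mice differ in age and library kit.

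The median log2 difference of the 4 genes was 0.20 in the Dnmt3a mice, beside 0.00 over all genes tested. 1 of the 4, Ina, was called higher by limma, as were 0.225% of the 10670 tested genes, while 0.572% were called lower and 0.797% in either direction. 2 of the 4, Nefh and Ina, had groups without overlap with the mutant higher, as had 5.33% of tested genes, while none was without overlap with the mutant lower, as were 6.67%. In either direction 12.0% of tested genes had no overlap. This contrast too chose the genes. None of the 4 was called with a term for the 2 sets, with no filter on low values, with each library centred on its median, or in the fits that left out 1 library, except that 2 were called without Dnmt3a-WT library 2.

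**Figure D2:**
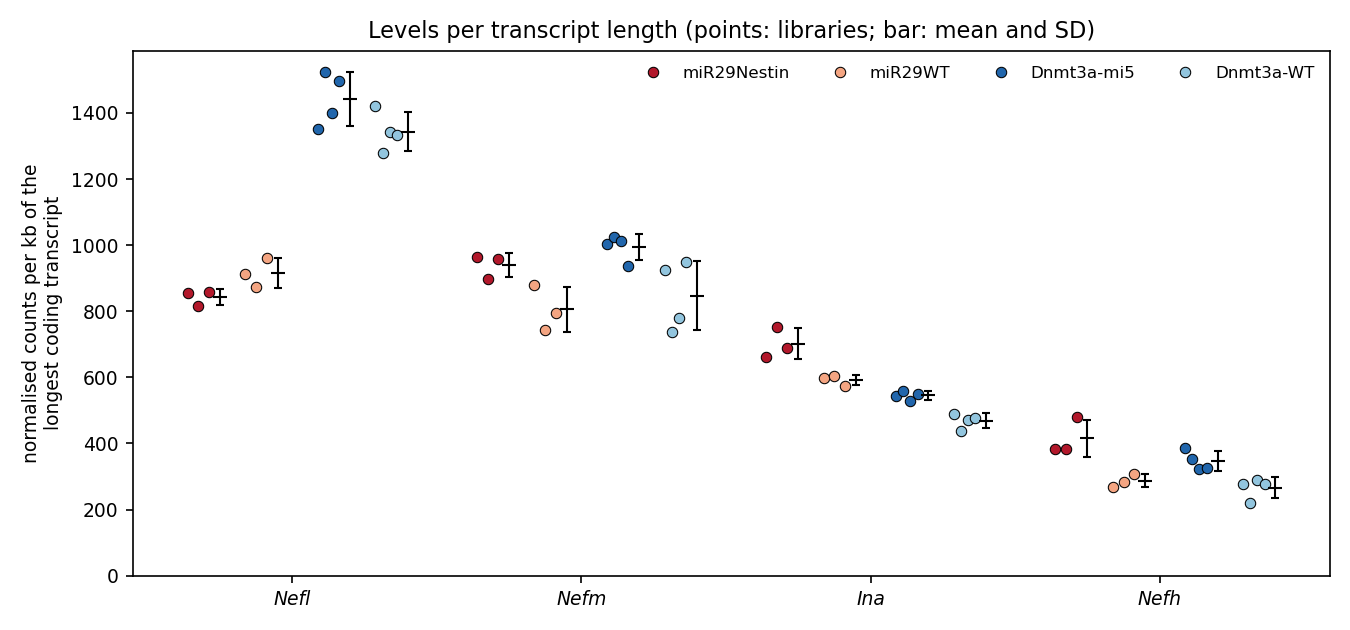
Normalised counts per kilobase of the longest coding transcript (vertical axes) for the 4 genes in each library of each group, with the mean and SD as bars. In the miR29 mice Nefm lies above Nefl in miR29Nestin and their libraries overlap in miR29WT, while in the Dnmt3a mice the order Nefl, Nefm, Ina, Nefh is the same in both groups.

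Levels between genes were compared per kilobase of transcript. In miR29Nestin cortex the medium chain had the highest level, 939.8 ± 37.4 normalised counts per kilobase, above Nefl at 842.9 ± 24.4, Ina at 702 ± 46.4 and Nefh at 416.1 ± 55.6 (SD, n = 3), and no neighbours in this order overlapped. In miR29WT cortex the light chain came first at 915.8 ± 44.1 normalised counts per kilobase, followed by Nefm at 805.6 ± 69.0, Ina at 592.5 ± 16 and Nefh at 287.4 ± 20.2 (SD, n = 3), and the libraries of Nefl and Nefm overlapped. Nefm was taken at 3680 nt, its longer coding transcript, here and in the shares below. Nefm has 1413 nt of coding sequence in that transcript and 2547 nt in the shorter one. At 3334 nt, its shorter one, it averaged 1037 ± 41.3 in miR29Nestin and 889.2 ± 76.2 in miR29WT, so that its place above Nefl in miR29Nestin held and that below Nefl in miR29WT stayed within the spread.

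In the older mice of the Dnmt3a table the order was the same in both groups. In Dnmt3a-mi5 cortex Nefl averaged 1442 ± 80.9 normalised counts per kilobase, Nefm 995.1 ± 39.5, Ina 545.3 ± 13.2 and Nefh 346.8 ± 30.0 (SD, n = 4). In Dnmt3a-WT cortex Nefl averaged 1344 ± 59.5, Nefm 847.5 ± 105, Ina 469.2 ± 22.6 and Nefh 266.3 ± 31.0 (SD, n = 4). No neighbours overlapped in either group. All 4 belong to the more abundant mRNAs of the cortex by normalised count. Of the genes tested in the miR29 table, 94.5% had a lower mean normalised count than Nefm and 83.2% a lower one than Nefh.

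The subunits differ in proportion as well as in level. As a share of the summed level per kilobase of the 4 genes, Nefl made up 29.8%, 28.6% and 28.7% in the miR29Nestin libraries, against 34.4%, 34.8% and 36.4% in the miR29WT libraries. Nefh made up 13.4%, 13.5% and 16.1% in the miR29Nestin libraries, against 10.1%, 11.4% and 11.7% in the miR29WT libraries. The light chain thus held a smaller part of the mRNA pool, and the heavy chain a larger one, in every miR29Nestin library. The ratio of Nefh to Nefl counts averaged 0.583 ± 0.0687 in miR29Nestin and 0.371 ± 0.0207 in miR29WT (SD, n = 3 each), 1.57-fold higher in miR29Nestin.

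Both other ratios to the light chain also kept the groups apart. Nefm to Nefl averaged 1.21 ± 0.0146 in miR29Nestin and 0.958 ± 0.0782 in miR29WT, and Ina to Nefl averaged 0.8 ± 0.0759 in miR29Nestin and 0.622 ± 0.046 in miR29WT (SD, n = 3 each). The ratio of Nefm to Ina hardly differed, at 1.53 ± 0.156 in miR29Nestin and 1.55 ± 0.14 in miR29WT. These ratios restate the differences that chose the genes and carry no test. They do not depend on how a library was scaled, since both counts come from the same library.

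In the Dnmt3a mice the shifts in proportion were smaller. The ratio of Nefh to Nefl averaged 0.285 ± 0.0364 in Dnmt3a-mi5 and 0.234 ± 0.0227 in Dnmt3a-WT (SD, n = 4 each), and the lowest Dnmt3a-mi5 library and the highest Dnmt3a-WT library both rounded to 0.256. Ina to Nefl averaged 0.363 ± 0.0165 in Dnmt3a-mi5 and 0.335 ± 0.00725 in Dnmt3a-WT, without overlap. Nefm to Nefl averaged 0.753 ± 0.0576 in Dnmt3a-mi5 and 0.686 ± 0.0698 in Dnmt3a-WT, with overlap.

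**Figure D3:**
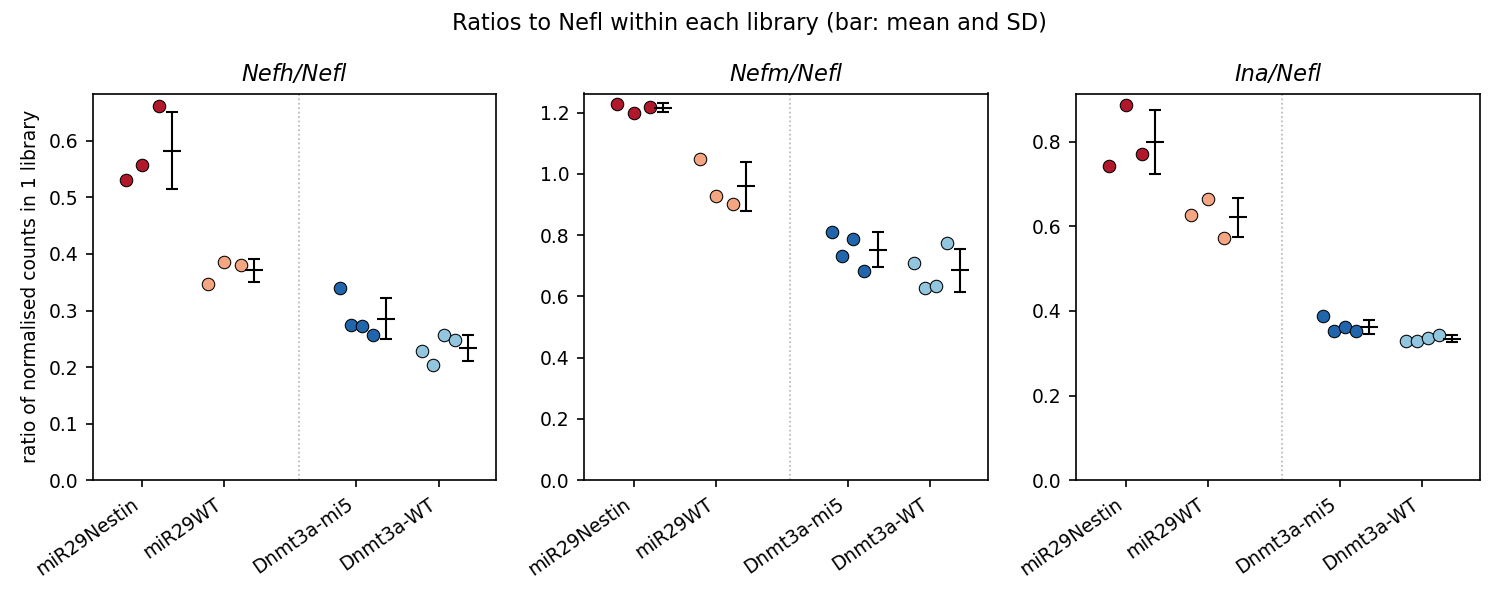
Ratios of normalised counts (Nefh, Nefm and Ina each over Nefl) in every library, by group, with the mean and SD as bars. In miR29Nestin the ratio of Nefh to Nefl averages 0.583 against 0.371 in miR29WT, and in Dnmt3a-mi5 0.285 against 0.234 in Dnmt3a-WT.

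How the 4 genes varied among libraries of 1 group was described by the correlation of their deviations from the group means, which do not hold the contrast that chose them. Over the 8 libraries of the Dnmt3a table, Pearson's r was above 0 for 6 of 6 pairs, between 0.114 and 0.725, with Ina and Nefl at 0.724 and Nefh and Nefl at 0.114. Without the 2 libraries farthest from the median the values ran from -0.219 to 0.826. Over the 6 libraries of the miR29 table, r was above 0 for 2 of 6 pairs, from -0.752 for Ina and Nefl to 0.514 for Nefm and Nefl. The libraries share depth, dissection and, in the Dnmt3a table, the adjustment of the 2 sets, and deviations of so few libraries give no firm value.

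The genes most like the mean of the 4 over the libraries were found by Pearson's r, which describes these libraries and carries no test. Over the 6 miR29 libraries they were Fam19a5 (r = 0.993), Nav3 (0.992), Entpd7 (0.989), Luzp1 (0.988) and Adamtsl5 (0.988). Over the 8 Dnmt3a libraries they were Ppp1r12c (0.987), Fhad1 (0.976), Rpp25 (0.976), Tnk2 (0.975) and Ogdhl (0.974). For deviations from the group means they were Pik3c3 (0.997), Arl8b (0.997), Nsd1 (0.992), Dip2b (0.989) and Zfp334 (0.988) in the miR29 table, and Atf6 (0.992), Hip1r (0.99), Gtf3c2 (0.989), Enox2 (0.989) and Frmpd1 (0.988) in the Dnmt3a table. No gene stood in more than 1 of these 4 lists of 5. The genes named are the highest of all tested genes over 6 or 8 libraries, so values of r near 1 arise by selection alone. In the miR29 table the mean of the 4 is also no shared course, since r of deviations was above 0 for 2 of 6 pairs.

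The 4 genes were then set beside the other genes of the axonal cytoskeleton. 94 genes in 6 lists cover other intermediate filaments, transport motors, microtubules, the membrane skeleton with the node of Ranvier, the kinases and phosphatases that act on neurofilament tails, and factors of neurofilament turnover. Of the 89 that passed the filter, 10 rose and 22 fell in miR29Nestin (limma, adjusted p under 0.05; 36.0% called, beside 19.1% of all genes tested), and their median log2 difference was -0.08. The list medians lay at -0.17, -0.10, -0.10, -0.10, -0.09 and 0.02 in the order named. The 4 neurofilament genes, with a median of 0.22, were chosen with this contrast known, so nothing is read from the gap. In Dnmt3a-mi5, 0 of the 89 were called by limma, 20 of them at an unadjusted p under 0.05 (as were 19.0% of all genes tested), and the list medians ran from -0.03 to 0.06.

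Among the other intermediate filaments and the linkers that tie them to other structures, 1 of 9 tested genes rose and 2 fell in miR29Nestin. With the replicate number as a block, which pairs libraries by number alone, 1 rose and 3 fell. The gene that rose was Gfap, the filament of astrocytes, at 2922 ± 208 normalised counts in miR29Nestin and 1950 ± 95.3 in miR29WT (SD, n = 3 each; log2 difference 0.54, limma adjusted p = 0.000198). It is no neuronal gene, and no other filament gene here was called higher. Vim and Nes, filaments of progenitors and glia, had log2 differences of -0.17 and -0.22 (limma adjusted p = 0.188 and 0.0675). Prph, which encodes peripherin, a filament mainly of peripheral neurons, averaged 21.09 normalised counts in miR29Nestin and 32.1 in miR29WT and did not pass the filter. Macf1 and Dst, 2 giant cross-linkers, fell by 0.29 and 0.26 on the log2 scale, but without miR29WT library 3 neither was called (limma adjusted p = 0.122 and 0.0728). Macf1 was also lost without miR29Nestin library 1 or 2 or miR29WT library 2, and under quantile normalisation (limma adjusted p = 0.0509).

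Of the 16 motor genes, 1 rose and 3 fell in miR29Nestin (1 and 6 with the replicate block). Neurofilaments move along axons mainly by the kinesin heavy chain Kif5a, which had 54560 ± 1160 normalised counts in miR29Nestin and 48140 ± 560 in miR29WT (SD, n = 3 each; log2 difference 0.18, limma adjusted p = 0.00511). Under quantile normalisation its difference was 0.08 (limma adjusted p = 0.358). Kif21b fell by 0.28 (limma adjusted p = 0.00204), Kif1a by 0.17 (0.0115) and Dync1h1, the dynein heavy chain, by 0.14 (0.0472) on the log2 scale. Kif1a and Dync1h1 were not called under quantile normalisation or without miR29WT library 3, and Dync1h1 was lost under most alternatives. The number that fell was 5 without miR29Nestin library 3 and 1 without miR29WT library 3.

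Microtubules run beside neurofilaments in the axon, and 6 of 18 of their genes fell while 1 rose in miR29Nestin (8 and 2 with the replicate block). Map1a, a microtubule-binding protein, fell: miR29Nestin libraries averaged 14590 ± 401 normalised counts and miR29WT libraries 18870 ± 815 (SD, n = 3 each; log2 difference -0.37, limma adjusted p = 0.000324). Tuba4a, an alpha tubulin, and Stmn2, a tubulin-binding protein of growing axons, fell by 0.33 and 0.30 on the log2 scale (limma adjusted p = 0.000829 and 0.00169). The beta tubulin Tubb2a rose by 0.34 (limma adjusted p = 0.00151), though reads of tubulin genes may be split among near-identical copies.

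Of 16 genes of the membrane skeleton and the node, 5 fell and 2 rose in miR29Nestin. The adhesion protein gene Nrcam fell, with means of 3892 ± 144 normalised counts for miR29Nestin and 4669 ± 190 for miR29WT (SD, n = 3 each; log2 difference -0.25, limma adjusted p = 0.00555). The alpha spectrin Sptan1 fell by 0.18 and the adducin Add1 by 0.19 on the log2 scale (limma adjusted p = 0.008 and 0.0201). Add1 was not called without miR29WT library 2 or 3. Without either of these libraries 3 genes fell, and without miR29Nestin library 2 or miR29WT library 2 none rose.

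Of 18 kinase and phosphatase genes, 3 rose and 4 fell in miR29Nestin (5 and 4 with the replicate block). Cdk5, which phosphorylates the tails of the medium and heavy chains, is switched on by the product of Cdk5r1. Cdk5r1 fell, with means of 2921 ± 24.7 normalised counts for miR29Nestin and 3501 ± 40.4 for miR29WT (SD, n = 3 each; log2 difference -0.25, limma adjusted p = 0.00306). Prkaca, the catalytic subunit of protein kinase A, rose by 0.30 and Mapk10 by 0.23 (limma adjusted p = 0.00331 and 0.0108), Mapk10 not without miR29Nestin library 2 or miR29WT library 2. Without either of those 2 libraries only 1 gene of the list rose, and without miR29Nestin library 1 or miR29WT library 2 or 3 only 2 fell.

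Of 12 tested turnover genes, 2 rose and 2 fell in miR29Nestin (4 and 2 with the replicate block). Arhgef28, whose product binds the mRNA of the light chain, had 430 ± 13.1 normalised counts in miR29Nestin and 295.1 ± 36.3 in miR29WT (SD, n = 3 each; log2 difference 0.38, limma adjusted p = 0.00375). The small heat shock protein gene Hspb8 rose by 0.54, at low counts, and the calpain gene Capn1 and the ubiquitin hydrolase gene Uchl1 fell by 0.43 and 0.34 (limma adjusted p = 0.00244, 0.00301 and 0.00232).

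**Figure D4:**
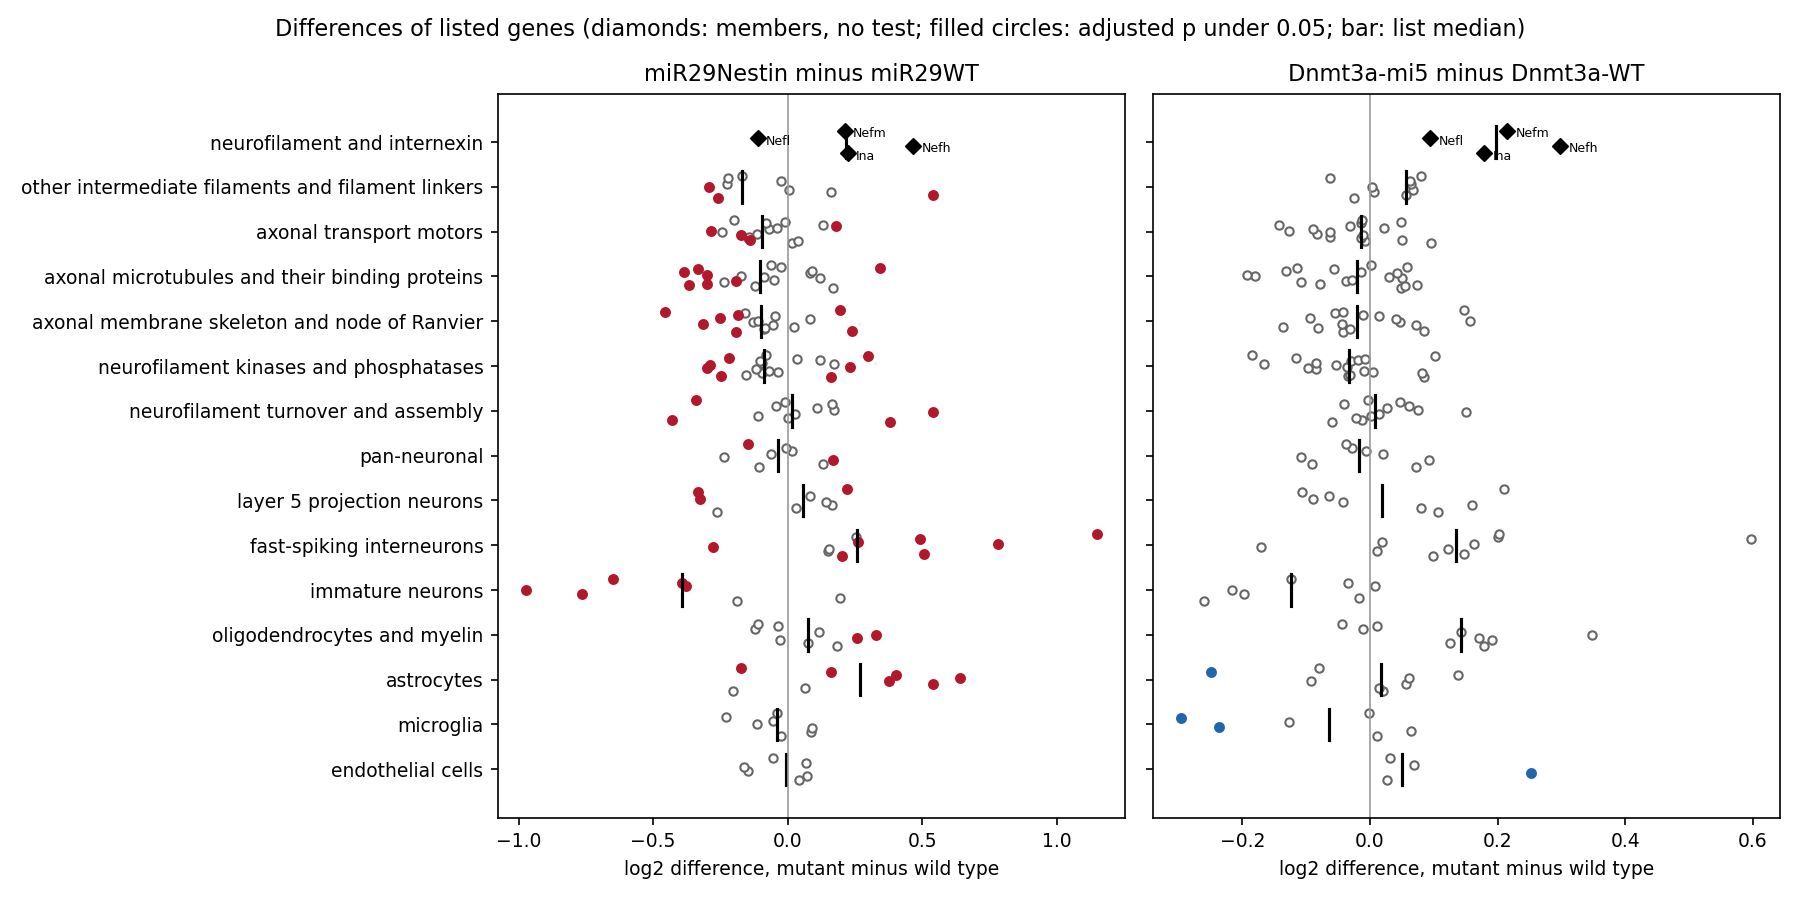
Log2 difference, mutant minus wild type (horizontal axes), of every tested gene of the 4 neurofilament and internexin genes, the 6 axonal lists and the 8 marker lists in each model, with filled circles for genes at a limma adjusted p under 0.05, diamonds for the 4 genes without a test, and a bar at each list's median. In miR29Nestin the 4 genes, chosen with this contrast known, have a median of 0.22 and no axonal list has a median above 0.02. Markers of fast-spiking interneurons and astrocytes have medians of 0.26 and 0.27 and those of immature neurons of -0.39.

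Markers of the cells that could carry these mRNAs were read in the same libraries. In bulk tissue, fewer cells of a type and less RNA per cell cannot be told apart. General neuronal markers had a median log2 difference of -0.03 in miR29Nestin (1 of 8 rose and 1 fell, neither count standing above 0 without miR29WT library 3, and none fell without miR29Nestin library 2; 1 rose and 2 fell with the replicate block), and their summed level was 115400 to 116300 normalised counts in miR29Nestin libraries, against 116400 to 122200 in miR29WT libraries. Markers of layer 5 projection neurons had a median of 0.06, with 1 of 8 that rose (Pcp4) and 2 that fell (Fezf2 and Ldb2). Without miR29WT library 2 neither of that pair was called, and without miR29WT library 3 only 1 was. With the replicate block 3 fell.

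Markers of fast-spiking interneurons, which are rich in neurofilament, differed mostly upward. Of 10, 6 rose and 1 fell in miR29Nestin (none fell without miR29Nestin library 1 or 2 or miR29WT library 1 or 3; 9 rose and 1 fell with the replicate block), with a median log2 difference of 0.26. Their summed level was 50370 to 53260 normalised counts in miR29Nestin libraries, against 38640 to 41930 in miR29WT libraries. Vamp1, a vesicle fusion protein gene of fast synapses, had 6554 ± 209 normalised counts in miR29Nestin and 2862 ± 267 in miR29WT, and Pvalb, the calcium buffer parvalbumin, had 1411 ± 71.8 in miR29Nestin and 747.7 ± 73.0 in miR29WT (SD, n = 3 each; limma adjusted p = 2.94e-06 and 4.29e-05). The potassium channel gene Kcna1 rose by 0.51 on the log2 scale (limma adjusted p = 0.000658).

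Markers of immature neurons differed mostly downward. Of 7 tested, 5 fell and 0 rose in miR29Nestin (5 and 1 with the replicate block), with a median log2 difference of -0.39 and a summed level of 2989 to 3214 normalised counts in miR29Nestin libraries, against 4734 to 5459 in miR29WT libraries. The largest differences among them were those of Nrep at -0.97, Marcksl1 at -0.77 and Tubb2b at -0.65 (limma adjusted p = 1.31e-05, 0.000103 and 0.000572).

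Of 9 genes of oligodendrocytes and myelin, which wraps the axons that neurofilaments fill, 2 rose and none fell in miR29Nestin (3 rose with the replicate block). Their median was 0.07, and it ran from -0.05 without miR29Nestin library 1 to 0.18 without miR29Nestin library 3. Mobp rose by 0.33 and Mal by 0.26 (limma adjusted p = 0.00398 and 0.0332), Mal not without miR29Nestin library 1 or 2 or miR29WT library 2 or 3, when 1 gene rose. Of 8 astrocyte genes 5 rose and 1 fell (median 0.27), none of them lower without miR29Nestin library 2 or miR29WT library 1 or 3, and 2 lower without miR29Nestin library 1 or with the replicate block. Of 7 microglial and 6 endothelial genes 0 were called by limma, 1 of each list at an unadjusted p under 0.05. No marker was at 0 in every library of the miR29 table. The part of these cells in the values of the 4 genes was not tested.

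In Dnmt3a-mi5 none of the 10 fast-spiking markers was called by limma, 3 of them at an unadjusted p under 0.05, and their median log2 difference was 0.13. Their summed level was 27840 to 31980 normalised counts in Dnmt3a-mi5 libraries, against 23050 to 30960 in Dnmt3a-WT libraries, so the groups overlapped. Markers of immature neurons had a median of -0.12 with 0 of 7 called (2 at an unadjusted p under 0.05), and myelin genes a median of 0.14 with 0 of 9 called (1 at an unadjusted p under 0.05). Without Dnmt3a-WT library 2 the medians were 0.05 for fast-spiking, -0.05 for immature and 0.03 for myelin markers, and 2 immature markers were called lower; without Dnmt3a-mi5 library 1 the myelin median was 0.08. General neuronal markers had a median of -0.02, between -0.05 and 0.01 when 1 library was left out. The part of these cells in the values of the 4 genes was not tested here either.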

How the data were processed

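Per the labels' protocols, RNA was extracted with RNeasy and libraries made with TruSeq stranded reagents (miR29 mice), or with Direct-zol and KAPA stranded reagents (Dnmt3a mice), and sequenced paired-end. The tools in the submitters' processing notes are STAR, Salmon, cutadapt and DESeq2, and the builds are mm9 and hg19, without versions or roles. The authors deposited 1 table per model of log2 values from the variance-stabilising transformation, 24444 genes each. Every column of per-sample values was used.

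The Dnmt3a table repeats its replicate names, so its libraries are numbered by column order, which names no mouse. In it, the means of 2 sets of 4 libraries agreed for every gene within 5.5e-09 (other splits differed by at least 0.538). An effect had thus been removed before deposit, and 2537 genes lay below the zero level. The main fit held no term for that effect, so its SE and p-values do not allow for the removal.

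Genes with a mean of 1 or more over a table's lowest value were tested with limma 3.58.1 in R 4.3.3 (lmFit, eBayes with trend), Benjamini-Hochberg adjustment over all genes tested and a threshold of 0.05. Normalised counts were recovered by inverting the transformation from each table's zero level (6.58607 and 7.62952); for the miR29 libraries, between 87.73 and 90.17% of low values then fell within 0.05 reads of a whole number. The code was tested on simulated data. The replicate block pairs the miR29 libraries by number, though no label states a pairing. Same-numbered deviations correlated at 0.335, 0.204 and 0.186, but miR29Nestin library 3 and miR29WT library 2 correlated at 0.178. By Kdm5d and Uty, the libraries numbered 3 differed in sex.

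The 4 genes, the lists and the alternatives were chosen with earlier results of these data known. Named list genes are the up to 4 called genes with the smallest adjusted p in each list, with Gfap, Vim, Nes and Prph, and the 5 genes most alike; a few of the genes this rule names are not reported here. Gfap and Map2 each stand in 2 lists. Transcripts and coordinates are from GENCODE M21 (GRCm38), not the builds in the notes.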

Additional observations from a re-analysis of the deposited data

Results flagged for a closer look

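Slc1a2, a glutamate transporter gene among the astrocyte markers, had 42230, 42090, 42310 and 39900 normalised counts in Dnmt3a-mi5 libraries 1 to 4. Library 4 stood apart, with a gap to its nearest neighbour of 0.912 of the group's range, more than Dixon's 95% critical value for 4 libraries allows. It was the only one of 32 such groups, and chance alone sets apart about 1 in 20.

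Nefl differed in sign between the models: its log2 difference was -0.11 in miR29Nestin against miR29WT and 0.09 in Dnmt3a-mi5 against Dnmt3a-WT. The difference between both contrasts was not tested.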

How the results depend on the processing

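limma called 2289 genes in the miR29 table, and 1384 to 2313 when 1 library was left out (the lowest without miR29WT library 2, 1419 without miR29WT library 3 and 1474 without miR29Nestin library 2); with sex as a term, an alternative chosen after the data were seen, 2496. With the replicate block, which pairs libraries by number, it called 3037 genes and 75 of the listed ones (56 without the block). No named call was lost with the block. The Dnmt3a table gave 85 genes, 38 with no filter on low values, 13 with a term for the 2 sets and 9 to 176 when 1 library was left out (176 without Dnmt3a-WT library 2, at most 24 without any other). Its listed genes called were 4, then 1 with no filter, 1 with the term and 1 to 8 without a library. Nefh in Dnmt3a-mi5 differed by 0.45 within the first set and 0.15 within the second. No difference of the 4 genes or of a named called gene changed sign; list medians near 0 did, such as the myelin median in the miR29 table, 0.07, and -0.05 without miR29Nestin library 1. The cause of these changes was not tested. The depth of the Dnmt3a libraries is unknown.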

Other observations

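In Dnmt3a-mi5 cortex 4 of 60 tested cell type markers were called by limma (6.67%, beside 0.797% of all genes tested). The microglial receptor genes Cx3cr1 and P2ry12 fell by 0.24 and 0.30 on the log2 scale (limma adjusted p = 0.00919 and 0.0495). Cx3cr1 averaged 486.7 ± 12.0 normalised counts in Dnmt3a-mi5 and 628.8 ± 22.2 in Dnmt3a-WT (SD, n = 4 each). Slc1a2 of astrocytes fell by 0.25 and Flt1 of endothelial cells rose by 0.25 (limma adjusted p = 0.0478 and 0.0473). Over their lists, 2 of 6 tested microglial genes had a log2 difference above 0 and 4 below (median -0.06). Among astrocyte genes 5 of 8 were above 0 and 3 below (median 0.02). All 4 tested endothelial genes were above 0 (median 0.05). With a term for the 2 sets P2ry12, Slc1a2 and Flt1 were not called (limma adjusted p = 0.114, 0.126 and 0.114), nor was any of these 3 in 7 of the 8 fits that left out 1 library. With no filter on low values these 3 were not called either (limma adjusted p = 0.164, 0.955 and 0.146). Slc1a2 was also lost under quantile normalisation (limma adjusted p = 0.426).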
